A study of Mus musculus with 12 samples.

Results

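The 30 genes described here encode subunits of the BAF (SWI/SNF) chromatin remodelling complexes, chosen by gene name from the 20409 genes in the tables of 3 ORFtag screens. ORFtag is a retroviral cassette in which a promoter drives a selectable marker and a tag that ends in a splice donor, so that the tag is fused to the N terminus of whatever protein the exons downstream of the insertion encode. All 3 screens used diploid mouse embryonic stem cells derived from the haploid line HMSc2, and every cell analysed carried a GFP reporter and an insertion selected with G418. Genomic DNA was sequenced from 12 libraries, 2 sorted and 2 unsorted in each screen, so the values are counts of insertion sites, not of RNA. Markers of the cell type could therefore not be checked.

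The groups differed in reporter, tag and sort. In the activator screen the tag was TetR, the reporter was a puromycin resistance and GFP gene with TetO sites before a minimal promoter at an expression-stable locus of a clonal line, and GFP-positive cells were sorted. The repressor screen used the same tag with an active GFP reporter bound through TetO sites at the same locus, and GFP-negative cells were sorted. The PTGR screen, for post-transcriptional regulators, used the λN tag and a clonal line with a randomly integrated reporter whose transcript carried boxB sites and with CreERT2. Its cells went through 5 sorts, the last of them after Cre had removed the boxB sites. The unsorted libraries of each screen came from the same selected cells before sorting. Cassettes of all 3 reading frames were mixed in every library.

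BAF complexes use the energy of ATP to slide or evict nucleosomes and so change the access of other proteins to DNA. Each complex holds one of the ATPases SMARCA4 (BRG1) and SMARCA2 (BRM) on a shared core, and its remaining subunits define an assembly. ARID1A or ARID1B and the DPF proteins mark canonical BAF, whereas ARID2, PBRM1, BRD7 and PHF10 mark PBAF, and BRD9 with BICRA (GLTSCR1) or BICRAL (GLTSCR1L) marks non-canonical BAF. SS18 or its relative SS18L1 is found in both canonical and non-canonical BAF. In embryonic stem cells a BAF form with SMARCA4 and ARID1A is known to be needed for self-renewal. Here the members were 14 shared, 7 canonical, 4 PBAF and 3 non-canonical subunits and the SS18 pair. Shared means here not particular to a single assembly, and does not mean present in every assembly.

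An insertion was scored by the first splice acceptor downstream of it, because the tag is spliced onto that exon. The acceptors on which the results below turn are printed 5′ to 3′ on the coding strand, as 40 bases of intron in lower case followed by 20 bases of exon in capitals (RefSeq sequence of GRCm38, the mm10 assembly). Exon numbers are those of the deposited lists, and residue numbers give the first whole amino acid encoded from that exon. For the 3 Bicral acceptors, exon 2 begins at residue 1, exon 7 at residue 681 and exon 8 at residue 701 of 1074.
Bicral exon 2, chr17:46830977-46831036, minus strand: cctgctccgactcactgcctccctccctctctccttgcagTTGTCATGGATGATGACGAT
Bicral exon 7, chr17:46809607-46809666, minus strand: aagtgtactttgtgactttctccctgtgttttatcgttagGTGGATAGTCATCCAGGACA
Bicral exon 8, chr17:46808475-46808534, minus strand: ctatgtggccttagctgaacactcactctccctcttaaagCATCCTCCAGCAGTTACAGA
Its paralogue Bicra is shown at exon 2 (residue 1) and exon 8 (residue 764 of 1578), and Ss18l1 at the only exon that received insertions, exon 2 (residue 24 of 402).
Bicra exon 2, chr7:15999475-15999534, minus strand: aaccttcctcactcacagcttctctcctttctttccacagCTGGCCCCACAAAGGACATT
Bicra exon 8, chr7:15979967-15980026, minus strand: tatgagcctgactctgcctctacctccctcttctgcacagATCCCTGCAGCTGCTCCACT
Ss18l1 exon 2, chr2:180052424-180052483, plus strand: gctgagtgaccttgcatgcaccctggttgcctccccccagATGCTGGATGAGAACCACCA
The repressor results turn on Arid1a exon 2 (residue 382 of 2287), Arid1b exon 3 (residue 584 of 2296), Smarca4 exons 2 and 21 (residues 1 and 992 of 1617) and exon 2 of a short Smarca2 transcript of 296 residues.
Arid1a exon 2, chr4:133723032-133723091, minus strand: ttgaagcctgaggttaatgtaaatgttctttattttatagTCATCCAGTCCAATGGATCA
Arid1b exon 3, chr17:5097534-5097593, plus strand: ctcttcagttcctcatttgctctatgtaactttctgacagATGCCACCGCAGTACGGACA
Smarca4 exon 2, chr9:21632765-21632824, plus strand: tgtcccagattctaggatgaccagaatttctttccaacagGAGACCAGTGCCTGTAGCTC
Smarca4 exon 21, chr9:21669509-21669568, plus strand: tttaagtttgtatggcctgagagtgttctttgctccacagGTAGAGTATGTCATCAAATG
Smarca2 short exon 2, chr19:26749812-26749871, plus strand: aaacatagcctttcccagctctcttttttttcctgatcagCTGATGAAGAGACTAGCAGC
In each of these the intron ends in ag, the acceptor dinucleotide.

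The cassette reached nearly every member without selection. The sorted libraries held 14705 to 60980 insertions in the gene orientation (sense) within 200 kb of an exon, and the unsorted libraries 54088 to 233799, or 1022126 in all 6, which together formed the background. Of the 30 members, 29 had at least 1 background insertion, with a median of 39.5 per gene against 15 over all genes. Coverage ranged from 0 at Ss18l1 to 866 at Bicral, and 5 members had fewer than 10. A gene with little background can be called only from a few sorted insertions, and a sorted count of 0 allowed up to 0.935 insertions per 10000 in the activator, 0.801 in the repressor and 0.251 in the PTGR screen (3 counts). Limits and intervals of this kind take in counting error alone, because sister cells and PCR copies are not separate events.

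In the activator screen, subunits of the non-canonical complex and the SS18 pair took the sorted insertions. The sum of both sorted replicates was set against the background with Fisher's exact test (one-sided, Benjamini-Hochberg adjustment over every gene with 3 or more sorted insertions). A gene was called when its log2 odds ratio reached 1 and its adjusted p was under 0.001. Of the 10 members tested, 4 were called (Bicral, Bicra, Ss18 and Ss18l1), where 4.64% of all tested genes were, and each also passed in either replicate alone. Of the other members, 9 had no sorted insertion and 11 had 1 or 2, and the background share led to fewer than 3 expected at 23 of the 30. Over the 30 members, 11 lay above and 19 below the number of sorted insertions expected from the background. Both sorted libraries lay above all 6 unsorted libraries at 8 members, where 2.63% of all genes showed this. These were the called genes and Smarca4, Smarcd1, Bcl7a and Brd9, which were not called.

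**Figure D1:**
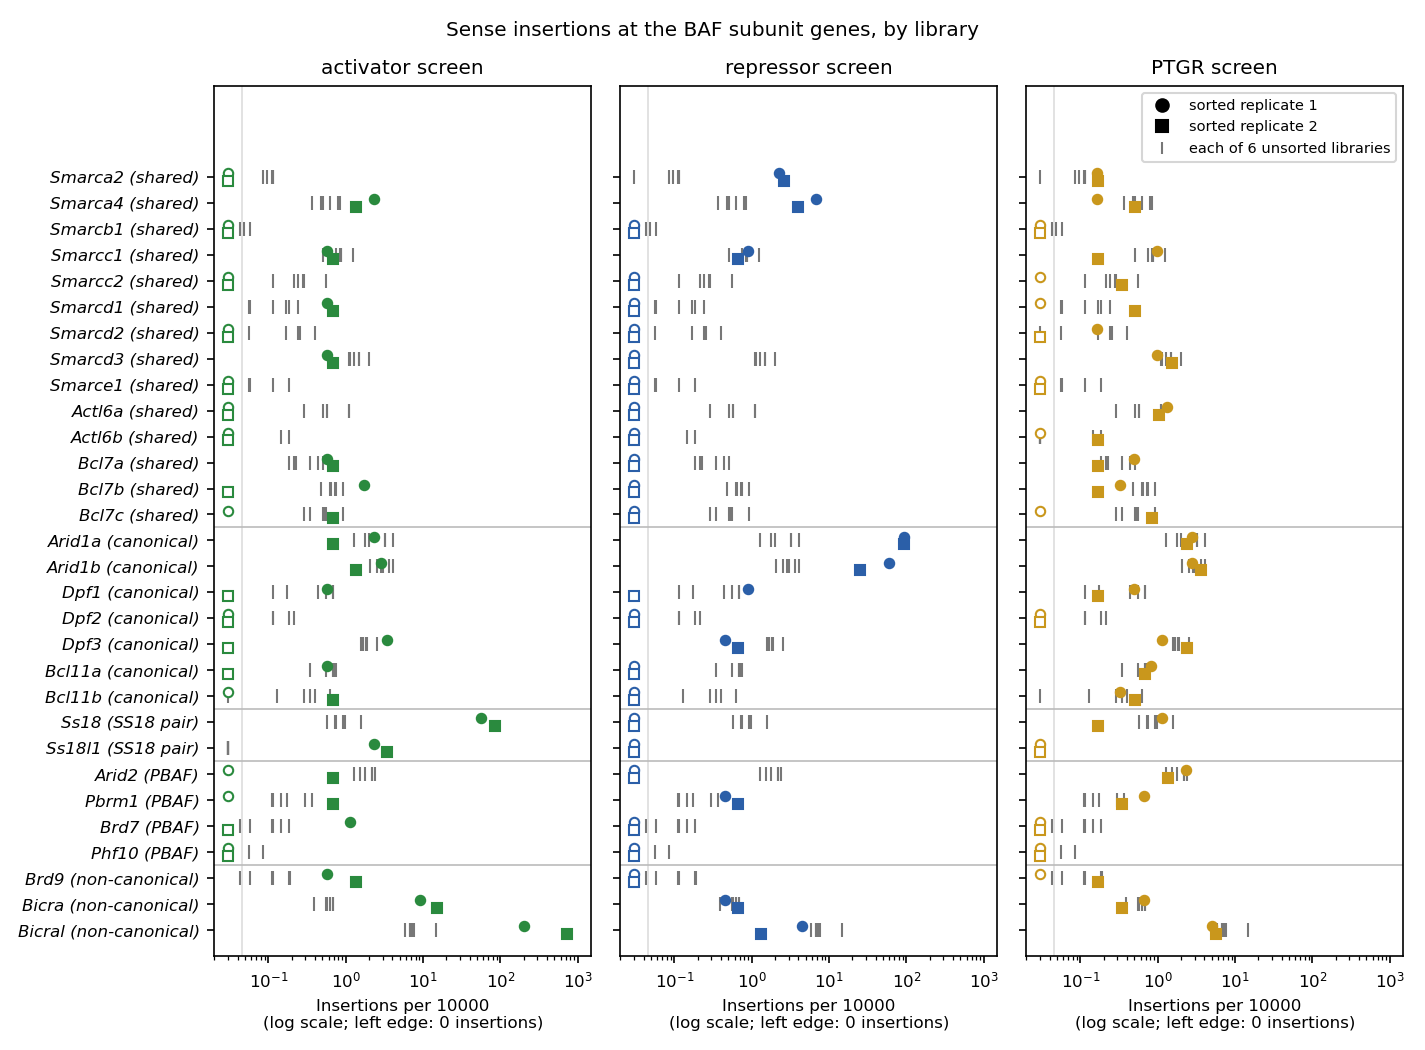
Sense insertions per 10000 insertions of each library at the 30 BAF subunit genes (log scale), with filled circles and squares for sorted replicates 1 and 2, grey ticks for the 6 unsorted libraries and open symbols for 0 insertions. In the activator screen Bicral, Bicra, Ss18 and Ss18l1 lie above all unsorted libraries, as do the uncalled Smarca4, Smarcd1, Bcl7a and Brd9. In the repressor screen Arid1a, Arid1b, Smarca2, Smarca4 and the uncalled Pbrm1 do, and in the PTGR screen most members overlap the unsorted libraries.

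Bicral (ENSMUSG00000036568, chr17:46798120-46858482), a scaffold subunit of non-canonical BAF, made up 200 and 730 of every 10000 insertions in activator sorted replicates 1 and 2. The 6 unsorted libraries had 5.88 to 14.6 per 10000 (mean 8.17 ± 3.23, SD, n = 6), so both sorted libraries lay above all of them. The distance between the 2 sorted libraries was also large (464.9 ± 374.5, SD, n = 2). Activator unsorted replicate 2 alone gave the 14.6, and the next highest, activator unsorted replicate 1, had 7.70. Of the 304 Bicral positions in activator unsorted replicate 2, 179 were also in activator sorted replicate 2. The log2 odds ratio was 5.77 ± 0.063 (SE from counting error), and 4.59 and 6.54 in the replicates taken alone. Against the spread between replicates, the edgeR quasi-likelihood test of the 2 sorted against the 2 unsorted libraries of the screen gave a log2 fold change of 5.40 ± 1.66 with an adjusted p of 0.0647, which missed its threshold of 0.05. With the replicate number as a block the same test passed, at 5.17 ± 0.36 (adjusted p = 4.10e-44). By DESeq2 without a block the adjusted p was 4.15e-07. Without the block and with either activator unsorted replicate left out, the edgeR test did not pass.

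Bicra (ENSMUSG00000070808, chr7:15970672-16047921), the paralogue of Bicral in the same assembly, had 16 and 22 sorted insertions. Without sorting there were 12 and 13 in the activator, 10 and 12 in the repressor and 9 and 3 in the PTGR screen, from libraries that were mostly several times deeper. Per 10000 insertions, the sorted libraries had 9.20 and 15.0 against 0.584 ± 0.111 (SD, n = 6) without sorting, with no overlap. Its log2 odds ratio reached 4.36 ± 0.30 (adjusted p = 2.57e-30, Fisher's exact test), and edgeR gave a log2 fold change of 4.12 ± 0.43 (adjusted p = 1.79e-19). For Brd9, the bromodomain subunit that defines this assembly, 1 and 2 insertions were sorted and 11 made up the background. Its log2 odds ratio of 3.12 ± 0.94 was not called (adjusted p = 0.13), and at that background 6 sorted insertions would have been needed.

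Along Bicral, the 2 sorted replicates differed from each other in where their insertions lay. Exons 2 to 4 held 43.1% and 78.9% of the sorted Bicral insertions, and 41.7% to 72.7% in the unsorted libraries. Insertions that splice into exons 2 to 4, which keep nearly the whole protein, numbered 150 and 847 in the sorted replicates and 488 in the background (log2 rate ratio 6.02 ± 0.08, SE from counting error). Of the 488, 221 were in activator unsorted replicate 2. Insertions that splice into exons 5 and 6, which begin at residues 612 and 648 and leave the C-terminal part, numbered 177 and 219 against 210 (5.91 ± 0.12). Both groups of exons were thus raised to similar extents when the replicates were summed. In replicate 1 alone the ratios were 4.17 and 5.63, and in replicate 2 they were 6.91 and 6.18, so the order of the exon groups turned between replicates.

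Further downstream the signal fell away within a few exons. At exon 7 of Bicral there were 20 and 7 sorted insertions against 91 in the background, a log2 rate ratio of 3.24 ± 0.32 (3.69 and 2.42 in the replicates). For exons 8 to 11, from residue 701 on, 1 of 1421 sorted insertions was found (0.0704%, 95% Wilson interval 0.0124 to 0.398) against 77 of 866 background insertions (8.89%, 7.17 to 10.97). The log2 rate ratio of these exons was -1.27 ± 1.45, an error too wide to give a direction against the background. The low share thus shows that the rise of exons 2 to 6 was absent at exons 8 to 11, not a loss of insertions. As a share of the gene, the 6 unsorted libraries each had between 3.62% and 14.4% at exons 8 to 11, above both sorted replicates. The fall of the rate ratio began at exon 7 and went on from exon 8. Both acceptors are printed above. Exons were compared without a test, since the exon groups were formed after their values had been seen.

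Bicra showed sorted insertions over the first part of the gene and beyond its middle. Exon 2, which keeps the whole protein, had 12 and 11 sorted insertions against 50 (log2 rate ratio 3.87 ± 0.36). Exons 5 to 8 had 4 and 11 against 5 (6.58 ± 0.75), among them 3 and 4 against 4 at exon 8, from residue 764. These exons held 39.5% of the sorted Bicra insertions (95% Wilson interval 25.6 to 55.3) but 8.47% of the background (3.67 to 18.4). Exons 9 to 15 had 0 of 38 sorted insertions, which allows a share of up to 7.89%, and 4 of 59 background insertions (6.78%), so a difference was not detectable at this depth.

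**Figure D2:**
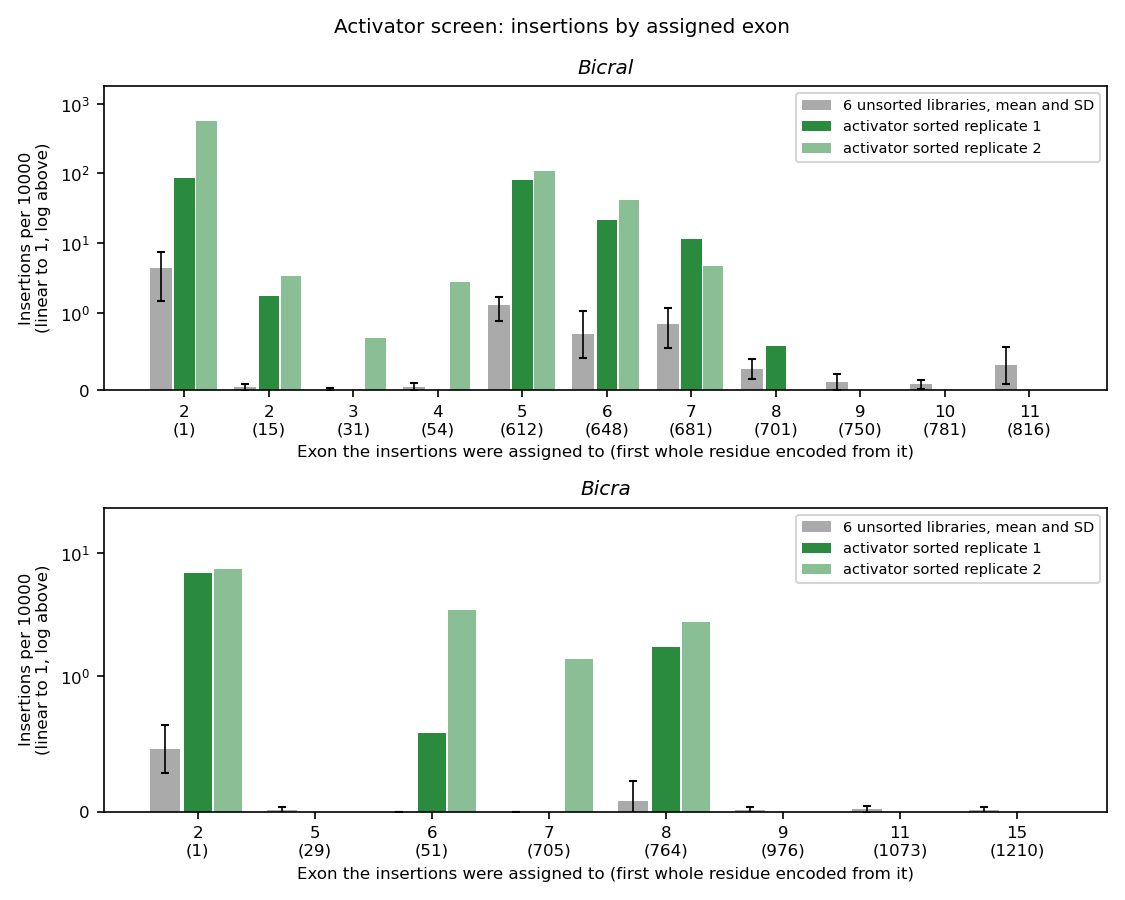
Insertions per 10000 (linear to 1, log above) by assigned exon, with the first encoded residue in parentheses, for Bicral and Bicra in the 2 activator sorted libraries (green) and as the mean and SD of the 6 unsorted libraries (grey). Sorted insertions at Bicral end with 1 at exon 8, and unsorted insertions continue through exon 11. The sorted depth is too low to show a loss there.

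Ss18 and Ss18l1 encode related subunits of both canonical and non-canonical BAF, of which SS18 is the one fused in synovial sarcoma. Ss18 had 98 and 126 sorted insertions, and 13, 33, 10, 13, 23 and 5 in the unsorted libraries of the activator, repressor and PTGR screens in turn. The sorted libraries were at 56.3 and 85.7 per 10000, far above the 0.925 ± 0.357 (SD, n = 6) of the unsorted ones. For Ss18 the log2 odds ratio was 6.21 ± 0.18 (adjusted p = 1.31e-255, Fisher's exact test) and the edgeR log2 fold change 5.88 ± 0.61 (adjusted p = 2.15e-19). Without activator unsorted replicate 1 or 2, the edgeR adjusted p was 0.992 or 0.504, while the log2 fold change was 5.68 or 6.83. Of the sorted insertions, 93 and 117 spliced into exon 2, from residue 24 of 418, as did 83 of the 97 in the background.

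Insertions assigned to a gene after reversal of the strand cannot make the fusion, and served as a control. For these reversed insertions 1 of 7 members tested was called in the activator screen, where 3.14% of all tested genes were, and the called member was Ss18. Its reversed insertions numbered 4 and 18 against 61 (log2 odds ratio 3.62 ± 0.36, adjusted p = 6.37e-14, Fisher's exact test). Replicate 2 carried most of this: without it the log2 odds ratio was 2.01 and the adjusted p 0.203. The part of this enrichment in the sense result was not tested. Bicra had 0 and 0 reversed insertions against 50, and Bicral had 5 and 8 where 19 were expected.

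Ss18l1 (ENSMUSG00000039086, chr2:180042509-180070201) had 4 and 5 sorted insertions and 0 in each of the 6 unsorted libraries. The adjusted p was 7.1e-13 (Fisher's exact test), and the sorted rate was at least 95.5-fold higher than the 3 background counts that a 0 allows. All 9 positions were distinct and formed 8 sites more than 10 bp apart, 6 upstream of the gene and 3 in introns, 684 to 13309 bp before the exon 2 acceptor printed above. The sorted rate of 2.85 ± 0.778 per 10000 (SD, n = 2) was well below that of Ss18. Its counts were too low for the edgeR test.

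The remaining canonical and shared subunits took few activator insertions. Arid1a and Arid1b, the DNA-binding ARID subunits of canonical BAF, had 4 and 1 and 5 and 2 sorted insertions, with log2 odds ratios of -0.83 ± 0.65 and -0.38 ± 0.55. Smarca4 had 4 and 2 against 64 (1.58 ± 0.62, adjusted p = 0.272, Fisher's exact test), and Smarca2 had 0 and 0 against 10. Among PBAF subunits, Arid2 had 0 and 1 sorted insertions where 6.38 were expected, Pbrm1 0 and 1, Brd7 2 and 0, and Phf10 0 and 0. None of these passed Fisher's exact test or edgeR where they could be tested. By edgeR, which tests both directions, 2 of 17 members tested were called (Bicra and Ss18), where 1.64% of 8000 genes were, and 5 members had an unadjusted p below 0.05. Across all genes tested the median log2 fold change was -0.72, and across the members it was -0.20 (-0.04 with the 1 member without sorted insertions at its limit).

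In the repressor screen a different set of subunit genes took the sorted insertions: both ARID1 paralogues and both ATPase genes. Part of the ATPase gene insertions would tag only a part of the protein, as given below. Of 6 members tested, 4 were called (Arid1a, Arid1b, Smarca2 and Smarca4), where 8.18% of all tested genes were. Arid1a, Arid1b and Smarca2 also passed in each replicate alone. No sorted insertion was found at 20 members and 4 had 1 or 2, but 22 of the 30 were expected to have fewer than 3 at this depth. Both sorted libraries lay above all 6 unsorted libraries at 5 members, the called genes and Pbrm1, where 2.85% of all genes showed this. By edgeR the same 4 genes were the called ones among 19 members tested, where 3.72% of 7688 genes were called. When the filter on low counts was left out, Arid1a alone was called. The median log2 fold change of all genes tested was -0.99. For the members it was -4.51, but 10 of the 19 had no sorted insertion, and with these at the 3 counts that a 0 allows the median was 0.615.

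Arid1a (ENSMUSG00000007880, chr4:133679008-133756769) had 209 and 142 sorted insertions in the repressor screen. Without sorting, 31 and 41 were found in the activator, 71 and 57 in the repressor and 75 and 7 in the PTGR screen. Per 10000 insertions the 2 sorted libraries nearly coincided, at 93.9 and 93.4, against 2.59 ± 1.07 (SD, n = 6) without sorting. The log2 odds ratio was 5.10 ± 0.12 (5.10 and 5.09 in the replicates), and edgeR gave 4.98 ± 0.29 (adjusted p = 7.41e-64).

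Arid1b (ENSMUSG00000069729, chr17:4994332-5347656) had 131 and 38 sorted insertions, and 53, 59, 64, 45, 48 and 22 in the unsorted libraries. Its sorted rates of 58.8 and 25.0 per 10000 were both above all unsorted libraries (3.03 ± 0.737, SD, n = 6), and below those of Arid1a. The log2 odds ratio was 3.99 ± 0.14 (adjusted p = 6.22e-119, Fisher's exact test), with 4.38 and 3.14 in the replicates, and edgeR gave 4.14 ± 0.26 (adjusted p = 1.06e-55).

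The ARID1 insertions mostly spliced into exons that lie early in the gene. At Arid1a, exon 2, from residue 382, had 192 and 132 sorted insertions against 268 (log2 rate ratio 5.04 ± 0.12). Exon 5, from residue 642, had 14 and 10 against 11 (5.90 ± 0.53), and exon 11, from residue 998, had 3 and 0 against 0. At Arid1b the insertions were spread over more exons. Exon 2 (residue 519) had 21 and 8 against 98, a log2 rate ratio of 3.01 ± 0.30. Exon 3 (residue 584) had 58 and 15 against 94, and exon 5 (residue 674) 33 and 6 against 42, with ratios of 4.40 ± 0.23 and 4.66 ± 0.32. Exon 9 (residue 955) still had 1 and 3 against 6. At exon 13, from residue 1232, 1 and 0 sorted insertions stood against 16, a ratio of 0.77 ± 1.49 whose error is too wide to give a direction.

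**Figure D3:**
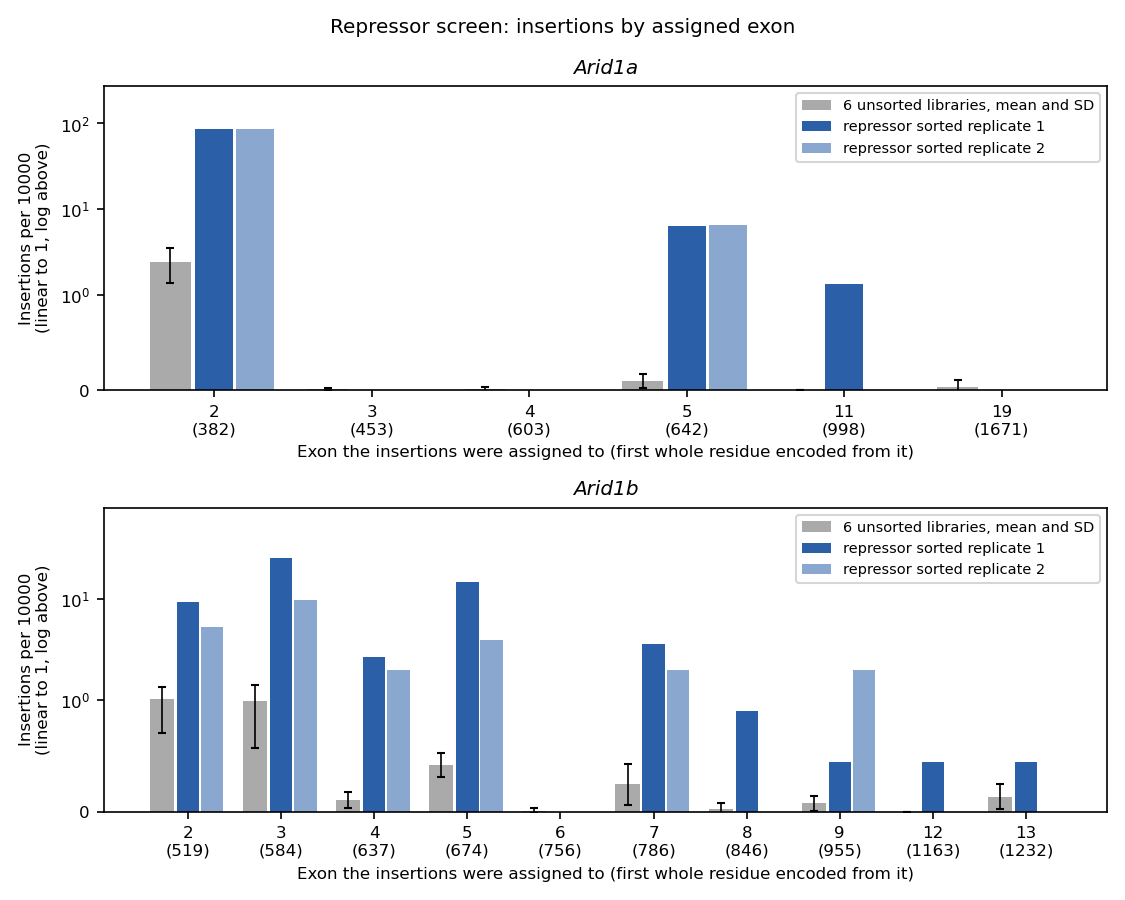
Insertions per 10000 (linear to 1, log above) by assigned exon, with the first encoded residue in parentheses, for Arid1a and Arid1b in the 2 repressor sorted libraries (blue) and as the mean and SD of the 6 unsorted libraries (grey). Arid1a insertions fall mainly at exon 2, whereas those of Arid1b extend from exon 2 to exon 9.

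Smarca4 (ENSMUSG00000032187, chr9:21616169-21704230) had 15 and 6 sorted insertions and 11, 10, 14, 15, 12 and 2 in the unsorted libraries. Its rates of 6.74 and 3.95 per 10000 exceeded the unsorted ones (0.607 ± 0.189, SD, n = 6). Smarca4 had a log2 odds ratio of 3.16 ± 0.36 (adjusted p = 2.80e-11, Fisher's exact test), and edgeR gave 3.05 ± 0.52 (adjusted p = 2.52e-07). Without sorted replicate 1 the log2 odds ratio was 2.66 and the adjusted p of 0.00297 missed the threshold, as did that of edgeR (0.138). At exon 2, which keeps the whole protein, 10 and 4 sorted insertions stood against 56, and at exon 21, from residue 992, 5 and 2 stood against 0.

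Smarca2 (ENSMUSG00000024921, chr19:26605050-26778322), the alternative ATPase, had 5 and 4 sorted insertions against 2, 2, 2, 2, 2 and 0 in the unsorted libraries. The rates of 2.25 and 2.63 per 10000 were above the highest unsorted value of 0.115. For Smarca2 the log2 odds ratio was 4.62 ± 0.66 (adjusted p = 8.58e-08, Fisher's exact test), and edgeR gave 4.56 ± 0.92 (adjusted p = 4.08e-05). None of these insertions spliced to exon 2 of the full-length transcript, which had 6 in the background. Of the 9, 5 spliced to exon 2 of the short transcript printed above (2 and 3, against 2), 2 to exon 9 (the same position in both replicates) and 2 to exon 27. Exons 9 and 27 begin at residues 519 and 1266 of 1601, so none of the 9 would keep the whole protein. With 1 sorted library left out, Smarca2 fell below the minimum count of the edgeR test.

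Most other members had few or no insertions in the repressor sorted cells, and none of them was called. Bicral had 10 and 2 sorted insertions where 31.7 were expected (log2 odds ratio -1.40 ± 0.42), Bicra 1 and 1, Brd9 0 and 0, and Ss18 0 and 0 where 3.56 were expected. Against the unsorted libraries of the repressor screen alone, edgeR gave Bicral a log2 fold change of -0.67 ± 0.45 (adjusted p = 0.446). Arid2, the ARID subunit of PBAF, had 0 and 0 against 38, 32, 31, 39, 56 and 7 in the unsorted libraries, where 7.44 were expected. Its decrease had an adjusted p of 0.0510 by edgeR and of 0.0976 by DESeq2, and passed only when TMM normalization was left out. Pbrm1 had 1 and 1, and Brd7 and Phf10 had 0 and 0. Smarcd3, Dpf3 and Actl6a, named after their values were seen, had 0 and 0, 1 and 1, and 0 and 0 sorted insertions against 145, 194 and 67. With reversed insertions 0 of 5 members tested were called in the repressor screen, where 5.61% of all tested genes were, and 1 had an unadjusted p below 0.05. At Smarca4 0 and 0 reversed insertions were sorted, at Arid1b 0 and 2, and at Arid1a 6 and 4 against 171 (adjusted p = 0.349, Fisher's exact test).

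In the PTGR screen, where the tag bound RNA, no member was called although its sorted libraries were the deepest. Of 19 members tested by Fisher's exact test, 0 were called, where 0.666% of all tested genes were, and 2 had an unadjusted p below 0.05. The smallest adjusted p was 0.428, at Actl6a (8 and 6 against 67, log2 odds ratio 0.84 ± 0.42) and at Pbrm1 (4 and 2 against 19, 1.43 ± 0.68). Of 18 members tested by edgeR 0 were called, where 0.342% of 8491 genes were, with 0 at an unadjusted p below 0.05 and 0 called by DESeq2. For reversed insertions 0 of 20 members tested were called, where 0.5% of all tested genes were, and 1 had an unadjusted p below 0.05.

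Most genes called in the other screens stood close to the background in the PTGR screen. Bicral lay below this summed background, but not detectably below the unsorted libraries of its own screen. Arid1a had 17 and 14 sorted insertions (log2 odds ratio -0.09 ± 0.27), Arid1b 17 and 21 (0.16 ± 0.25) and Bicral 31 and 33 (-0.66 ± 0.19). Ss18 had 7 and 1, Bicra 4 and 2, Smarca4 1 and 3, and Smarca2 1 and 1. Arid2 had 14 and 8 (-0.11 ± 0.32), and Brd7, Phf10 and Ss18l1 had none. At Arid1a and Arid1b, changes of the size measured in the repressor screen lay far outside the counting error of these values.

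Whether the sorted-against-unsorted change differed between screens was tested in 1 edgeR model over all 12 libraries, in which 25 members could be tested. Between activator and repressor 5 members differed, where 1.45% of 12809 genes did. Bicral was higher in the activator screen by 6.09 ± 0.48 (log2, adjusted p = 2.94e-33) and Bicra by 4.08 ± 1.00 (adjusted p = 0.00385), and Ss18 differed in the same direction. Arid1a and Arid1b were lower in the activator screen, with differences of -5.25 ± 0.60 (adjusted p = 1.23e-15) and -4.56 ± 0.56 (adjusted p = 1.55e-13). Smarca4 and Smarca2 did not pass in this contrast (adjusted p = 0.939 and 0.751).

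Against PTGR, 3 members differed in the activator screen (Ss18, Bicra and Bicral), where 0.71% of all genes did, and 3 in the repressor screen (Arid1a, Arid1b and Smarca4), where 1.38% did. The 3 contrasts share the libraries of the screen they have in common. For Smarca4 the difference was 3.295 ± 0.96 (adjusted p = 0.0464), and it passed under none of the 3 other settings tried.

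By class of subunit, each screen had its own distribution, in which few genes carried the raised shares. Non-canonical genes took 2.10% and 7.46% of activator sorted insertions against 0.0667% to 0.155% in the unsorted libraries. The SS18 pair took 0.586% and 0.891% in the activator screen and none in the repressor screen, against 0.00574% to 0.0159%. Canonical genes took 1.54% and 1.19% in the repressor screen against 0.0795% to 0.109%. In the activator screen they were at 0.0977% and 0.0272%, so neither library lay above all the unsorted ones. This holds only without the SS18 pair, which is also found in canonical BAF and was set apart after its values had been seen. With the pair counted as canonical, both activator sorted libraries would lie above the unsorted ones. PBAF genes took 0.0115% and 0.0136% in the activator and 0.00449% and 0.00658% in the repressor screen, below the 0.0183% to 0.0282% without sorting. These PBAF shares rest on 4 sorted insertions in the activator and 2 in the repressor screen. Arid2 held 203 of the 235 PBAF insertions in the background. Across all genes tested by edgeR the median log2 fold change was also negative in these screens, at -0.72 and -0.99. Shared subunits took 0.0988% and 0.0723% in the repressor screen against 0.0509% to 0.0666%, and overlapped the unsorted libraries in the activator screen. Bicral held 1421 of the 1462 non-canonical insertions sorted in the activator screen, and Ss18 held 224 of the 233 of the SS18 pair. In the repressor screen Arid1a and Arid1b held 351 and 169 of the 524 canonical insertions. Smarca4 and Smarca2 held 21 and 9 of the 33 shared insertions there. In the PTGR screen the class means lay between 0.670-fold (non-canonical) and 1.04-fold (PBAF) of the unsorted mean. With 2 sorted libraries an exact permutation test against the 2 unsorted ones of the same screen cannot reach 0.05, so the shares are given without a test.

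**Figure D4:**
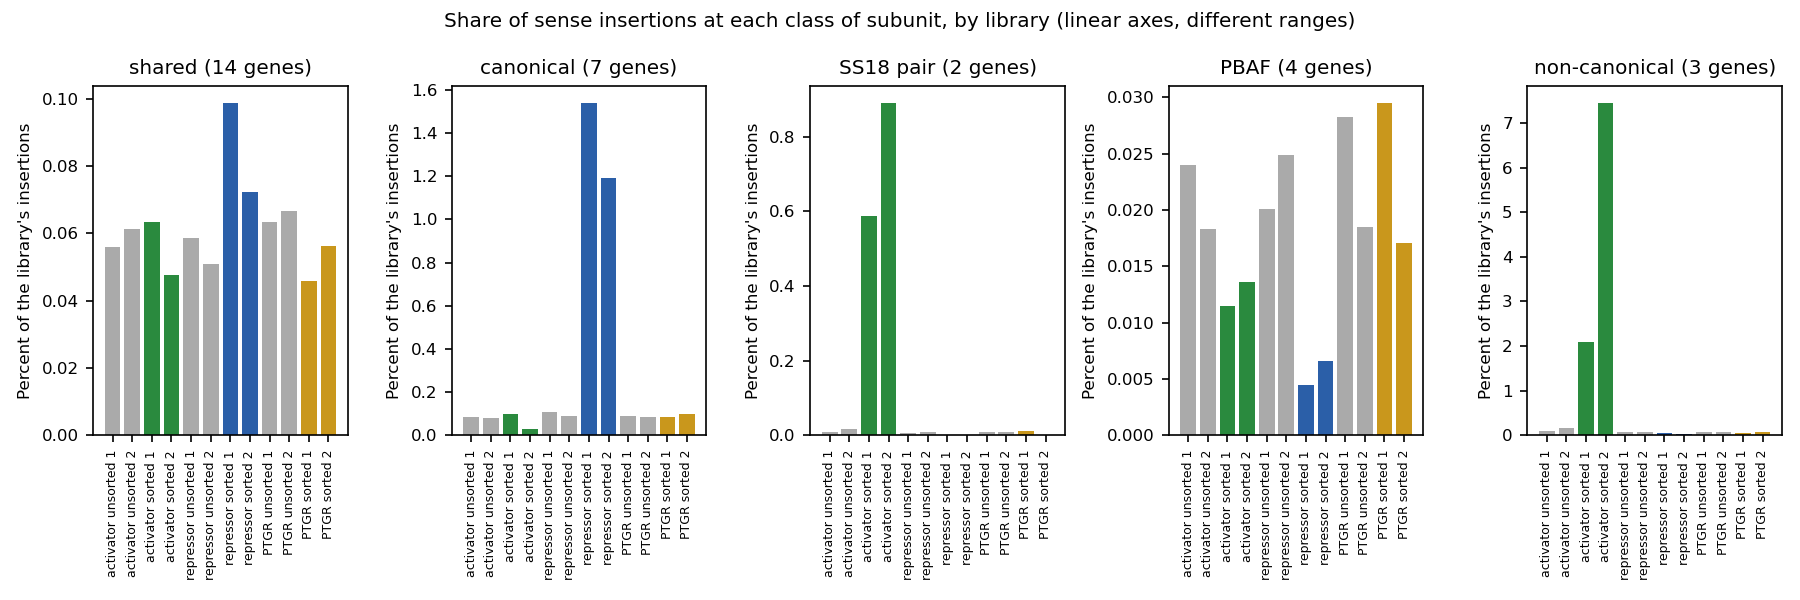
Percent of each library's sense insertions at shared, canonical, SS18 pair, PBAF and non-canonical BAF subunit genes (linear axes with different ranges), for unsorted (grey), activator sorted (green), repressor sorted (blue) and PTGR sorted (yellow) libraries. The non-canonical and SS18 pair shares are high only in the 2 activator sorted libraries (2.10% and 7.46% for non-canonical genes). The canonical share, from which the SS18 pair was set apart after its values had been seen, is high only in the 2 repressor sorted libraries. Bicral holds most of the non-canonical activator insertions, and Arid1a with Arid1b most of the canonical repressor insertions.

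Other remodelling and coactivator complexes give a scale for these counts. In the activator screen, where 4 of the 10 tested BAF genes and 4.64% of all tested genes were called, so were 5 of 7 tested Mediator genes (Med25, Med15, Med26, Med14 and Med12; 33 listed) and 3 of 5 tested SAGA genes (Atxn7, Tada3 and Atxn7l3; 17 listed). Of TFIID 2 of 6 tested genes were called (Taf3 and Taf4b, 15 listed), and of INO80, SRCAP and TIP60 2 of 9 (Ino80b and Ino80c, 29 listed). None of the 2 ISWI and 6 CHD and NuRD genes tested was called there by Fisher's exact test. In the repressor screen 2 of 9 tested CHD and NuRD genes (Chd3 and Chd4, the NuRD ATPases), 1 of 5 ISWI genes (Cecr2) and 1 of 5 SAGA genes (Tada3) were called, and none in the other 3 lists. No gene of the 6 lists was called with sense insertions in the PTGR screen. With reversed insertions Taf4b and Kat5 were called in the activator, Taf5 in the repressor and Tfpt in the PTGR screen, so Taf4b, like Ss18, passed in both orientations.

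Insertions upstream of the gene were a smaller part at several called members than without sorting. They made up 29.1% of Arid1a insertions in the repressor screen against 58.9% in the background, 2.96% against 21.6% at Arid1b, 38.1% against 60.9% at Smarca4 and, in the activator screen, 18.4% against 71.2% at Bicra. The background mixes screens: at Arid1a the unsorted libraries had 45.1% and 50.9% in the repressor and 74.2% and 73.2% in the activator screen. The Arid1a sorted replicates had 34.45% and 21.1%. At Smarca4 the sorted replicates had 40% and 33.3%, against 42.9% and 66.7% in the repressor unsorted libraries. At Bicral (15.8% against 13.7%) and Ss18 (88.4% against 81.4%) this part was not smaller. Some positions were recovered in both sorted replicates of a screen. Of all positions in repressor sorted replicate 2, 26% were also in replicate 1, whereas this share was 2.27% for activator and 0.591% for PTGR libraries, so the repressor replicates are not fully separate sets of insertions. At Arid1a 40 positions were in both, which is 19.1% of those in replicate 1 and 28.2% of those in replicate 2, and at Arid1b 10 positions (7.63% and 26.3%). In the activator screen 71 positions of Bicral (20.4% and 6.62%) and 8 of Ss18 (8.16% and 6.35%) were in both, and none of Bicra or Ss18l1. Counting these shared positions once changed no call of a member.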

How the data were processed

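The authors trimmed reads with Trim Galore 0.6.0, aligned first mates to mm10 with Bowtie2, removed duplicates and low-quality alignments, and gave each insertion to the closest downstream non-first exon among protein-coding transcripts of GENCODE vM25. They deposited 24 insertion lists, sense and reversed, and 3 tables per gene with counts, whose log2 odds ratios, adjusted p-values and hit labels were not used.

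Here each position was counted once per library (repressor unsorted lists name every position more than once), within 200 kb. The Fisher test, minimum of 3 sorted insertions and thresholds are those of the study's methods. edgeR 4.0.16 (R 4.3.3, TMM, at least 10 insertions over the libraries) used the 2 sorted and 2 unsorted libraries of a screen, with DESeq2 1.42.0 as an alternative, scipy 1.17.1 for Fisher tests and samtools 1.23.1 for sequences. SEs are Woolf's for odds ratios and log2 change divided by the root of F for edgeR. Exons and residues came from GENCODE vM21 on the same assembly, where all 5376 member insertions matched an acceptor. No sequence or coordinates are given for Ss18.

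Replicates are separate libraries of a group. The p-values of edgeR and DESeq2 measure only the spread between them, which may be technical. Those of Fisher's exact test come from summed libraries and take in counting error alone. Members and comparison lists were chosen with earlier results of these data known. The SS18 pair was set apart from the canonical subunits after its values had been seen. Values per library are given for called members, their paralogues, both ATPases and the subunits that define an assembly. The tests were checked on simulated counts.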

Additional observations from a re-analysis of the deposited data

Results flagged for a closer look

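Differences between screens in the sorted-against-unsorted change passed the edgeR interaction test for 11 pairs of a member and a contrast. For activator minus repressor (log2) they were -5.25 for Arid1a, -4.56 for Arid1b, 4.08 for Bicra, 6.09 for Bicral and 11.3 for Ss18. The Ss18 value rests on 0 insertions in both repressor sorted libraries and depends on the prior count, so it is not a bound. For activator minus PTGR they were 6.14 for Ss18, 3.65 for Bicra and 5.52 for Bicral. For repressor minus PTGR they were 4.74 for Arid1a, 3.57 for Arid1b and 3.295 for Smarca4. With 2 libraries in each group, no single library could be tested as an outlier.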

How the results depend on the processing

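Members were recounted under alternatives to the background, the definition of an insertion, distance, minimum count, threshold, normalization, filter and replicates. Of 276 alternative values, 252 were classed as the same. Of these, 171 were values of single genes that kept direction and side of the threshold, and no gene value reversed. The other 81 were counts of called members that stayed close to the main count, for which no direction was compared. The cause of the changes was not tested. Some alternatives were added after seeing the data (positions in both sorted replicates counted once, and sorted positions also seen unsorted left out) and changed no member call.

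Without the low-count filter edgeR called 4 members in the activator screen, gaining Bicral and Ss18l1, and 1 in the repressor screen, losing Arid1b, Smarca2 and Smarca4 (adjusted p = 0.195, 0.0963 and 0.350). With single libraries left out, Fisher calls were 4 to 4 (activator), 3 to 4 (repressor) and 0 to 0 (PTGR) for sense and 0 to 1 (activator) for reversed insertions. edgeR calls were 1 to 3 (activator), 2 to 4 (repressor) and 0 (PTGR). Ss18 lost its edgeR call without activator unsorted replicate 1 or 2 (adjusted p = 0.992 and 0.504, log2 fold change 5.68 and 6.83), and Smarca4 its call without repressor sorted replicate 1 (0.138). Bicral passed with a DESeq2 test (adjusted p = 4.15e-07), without TMM (0.0217) and with either sorted replicate left out. It did not pass with either activator unsorted replicate left out. Over all 8 alternative settings its log2 fold change lay between 4.04 and 6.23.

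No label states that equal replicate numbers pair a sorted with an unsorted library, so the block was kept as an alternative. Sorted and unsorted deviations of one number correlated by 0.046, 0.001 and 0.191 in the 3 screens. Shared positions favoured the same number in the activator screen (4.96% against 2.25% for sorted replicate 1, 19.5% against 1.46% for 2) and in the PTGR screen (18.15% against 0.342%, and 6.76% against 1.79%). In the repressor screen they did for replicate 2 (8.23% against 5.03%) but not for 1 (8.18% against 9.87%). With a replicate block edgeR called 3, 4 and 0 members, gaining Bicral (adjusted p = 4.10e-44), and differences between screens were 5, 3 and 2, without Smarca4 (adjusted p = 0.142). Depth limits what can be said of 5 members with under 10 background insertions.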
